A study of Mus musculus with 9 samples.

Results

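The 7 genes described here encode 4 fatty acid binding proteins (Fabp3, Fabp4, Fabp5 and Fabp7), the fatty acid translocase Cd36, lipoprotein lipase (Lpl) and the nuclear receptor Pparg. They were taken by symbol from the 19933 genes that the array measures through a probe annotated to a single gene, and all 7 were present, through 9 probes. For a gene with several probes, the brightest on average was read. The set was chosen by its leading gene: on these same arrays Fabp7 headed the ranking of genes by how far embryonic cardiac fibroblasts stood above both other groups. The other 6 genes joined it as relatives of Fabp7 or as parts of fatty acid uptake.

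Mouse heart RNA was hybridised to Gene 1.0 ST arrays from Affymetrix, and every one of the 3 cell groups had 3 biological replicates. One group held cardiomyocytes of the embryo, marked by Nkx-YFP, another held cardiac fibroblasts of the embryo, and the last held those of the adult heart. No treatment is named for any group. Strain, embryonic stage, adult age, sex, the sort or culture of the fibroblasts, and any pooling of animals are not stated in the labels. The series was made to look for fibroblast factors that promote the proliferation of myocytes.

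Fatty acid binding proteins are small cytosolic carriers that hold long-chain fatty acids in a barrel-shaped pocket and deliver them to membranes, mitochondria or nuclear receptors. Fatty acids reach them from circulating lipoproteins, from which lipoprotein lipase releases them, and cross the cell surface with the help of Cd36. Pparg is a receptor that binds fatty acids and turns on genes of lipid uptake and storage, Fabp4, Cd36 and Lpl among its known targets in fat cells. The heart takes much of its energy from fatty acids after birth, and Fabp3 is the form known from heart muscle, Fabp4 from fat cells and capillary endothelium, Fabp5 from skin and many other cells, and Fabp7 from the developing brain.

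Values are RMA values on the log2 scale, so that a difference of 1 is a 2-fold change, and differences of dim genes are compressed. The precision is limited by the number of arrays. The marker lists set the labels beside the values. Fibroblast markers had a mean log2 level of 8.36 to 8.59 in cardiomyocyte arrays, 9.69 to 9.94 in embryonic fibroblast arrays and 10.50 to 10.74 in adult fibroblast arrays. Cardiomyocyte markers stood at 12.52 to 12.63, 10.95 to 11.69 and 7.82 to 8.23 in the same order, so on the embryonic fibroblast arrays they lay nearer to the cardiomyocyte than to the adult fibroblast level. In whole preparations such as these, fewer cells of a type and less RNA per cell cannot be told apart.

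The promoters of 3 of the genes are shown first, of a gene with its highest level in embryonic fibroblasts (Fabp7), one with its highest in cardiomyocytes (Fabp3) and one with its lowest in embryonic fibroblasts (Cd36). Fabp4 and Pparg took another pattern: like Cd36 they had their highest mean in adult fibroblasts, but their lowest in cardiomyocytes. The table of RefSeq promoters (GRCm38.p6), each with 250 bases before and 50 after a start site, held 4 of the 7 genes. Capitals mark AGGTCA, the half-site of many nuclear receptors, the CCAAT box, TATAAA and the GC box GGGCGG, searched on both strands; a match on the opposite strand is seen as its reverse complement.
Fabp7 (chr10:57784673-57784972, plus strand): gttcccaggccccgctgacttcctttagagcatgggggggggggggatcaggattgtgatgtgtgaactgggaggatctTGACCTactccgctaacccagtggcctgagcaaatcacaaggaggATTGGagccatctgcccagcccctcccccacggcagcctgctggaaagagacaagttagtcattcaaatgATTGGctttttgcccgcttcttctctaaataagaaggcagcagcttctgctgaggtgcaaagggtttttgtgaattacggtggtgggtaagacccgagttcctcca
Fabp3 (chr4:130308488-130308787, plus strand): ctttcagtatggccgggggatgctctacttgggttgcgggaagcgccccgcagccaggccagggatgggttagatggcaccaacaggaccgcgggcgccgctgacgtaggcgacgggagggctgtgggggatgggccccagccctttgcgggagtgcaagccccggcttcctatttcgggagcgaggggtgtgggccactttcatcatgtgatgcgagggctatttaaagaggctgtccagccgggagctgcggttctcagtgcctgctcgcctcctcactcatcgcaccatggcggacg
Cd36 (chr5:17835847-17836146, minus strand): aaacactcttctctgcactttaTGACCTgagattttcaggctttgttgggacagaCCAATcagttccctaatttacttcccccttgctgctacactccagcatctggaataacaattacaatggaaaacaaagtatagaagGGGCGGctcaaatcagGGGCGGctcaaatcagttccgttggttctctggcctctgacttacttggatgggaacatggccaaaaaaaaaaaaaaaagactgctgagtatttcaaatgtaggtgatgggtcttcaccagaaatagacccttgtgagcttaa

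In the Fabp7 window AGGTCA was found at position -171 from the start site and CCAAT at -126 and -56, all on the opposite strand. The Cd36 window, which belongs to a start inside the span of the gene, held AGGTCA at -228 on the opposite strand, CCAAT at -195 and GGGCGG at -109 and -93. The Fabp3 window held none of these motifs, and its GC content of 65.0% compared with 54.0% for Fabp7 and 43.0% for Cd36, where the median of all promoters was 52.7%. AGGTCA occurred in 16.3% of the 32851 promoter windows of this length, CCAAT in 37.4%, GGGCGG in 35.7% and TATAAA in 13.6%. The direct repeat on which Pparg binds with its partner Rxr, AGGTCA followed by any single base and AGGTCA again, overlaps the half-site by its make-up. It occurred in 0.0396% of windows and in none of those of the members. Pparg had 3 start sites in the table, and AGGTCA lay at -28 of the first and at -9 of the second. These matches describe the letters only.

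**Figure D1:**
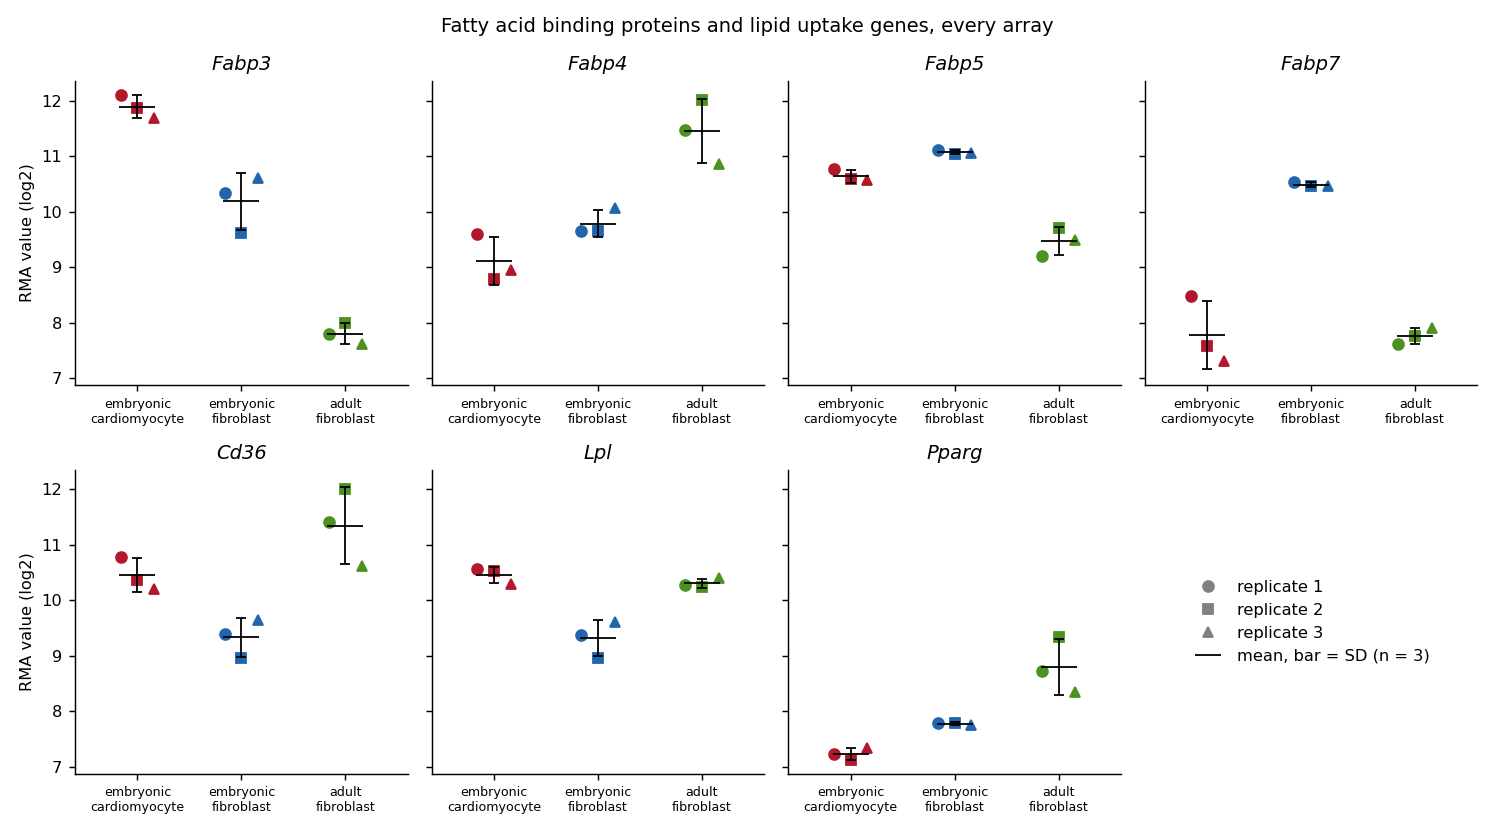
RMA values (log2, vertical axis) of the 7 genes on every array, by group on the horizontal axis. Symbols show replicates and bars the mean and SD of 3 arrays; Fabp7 lies between 10.45 and 10.53 in embryonic fibroblasts and at or below 8.48 elsewhere, while Fabp3 falls from above 11.68 in cardiomyocytes to at most 7.997 in adult fibroblasts.

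Fabp7, the brain-type carrier, had values of 10.53, 10.45 and 10.46 in embryonic fibroblasts. In cardiomyocytes they were 8.48, 7.58 and 7.30, and in adult fibroblasts 7.62, 7.75 and 7.90. All embryonic fibroblast arrays were above all others and close together (SD 0.044), and cardiomyocyte replicate 1 was the highest of the other 6. Its mean was 6.48-fold above cardiomyocytes (log2 difference 2.70) and 6.60-fold above adult fibroblasts (2.72). These are the differences for which the gene was chosen, so they are given without a test. Ranked by the smaller of the 2 differences over all genes, Fabp7 came first at 2.70 and the next gene, Klhl6, stood at 2.04.

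The choice of Fabp7 used its values in adult fibroblasts and in cardiomyocytes, each against embryonic fibroblasts. A comparison of adult fibroblasts with cardiomyocytes is therefore not independent of the choice, and its test is descriptive only. These groups overlapped, with means of 7.76 ± 0.14 (SD, n = 3) and 7.78 ± 0.62, and the difference did not pass the test (-0.03 ± 0.25, SE, limma with Benjamini-Hochberg adjustment, adjusted p = 0.947). Its 95% interval ran from -0.59 to 0.53, which is the precision 3 arrays a group gave for this gene. The sign turned without cardiomyocyte replicate 1, where the difference was 0.32 (adjusted p = 0.0754).

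Fabp7 is also known from Schwann cell precursors and glia. Of the 8 glial markers measured, 0 rose and 0 fell between embryonic fibroblasts and cardiomyocytes by limma, beside 10.3% and 11.1% of all genes. Against adult fibroblasts 0 were higher and 1, Cdh19, was lower (-2.52), beside 11.2% and 8.34%. The summed level of the 8 markers ran from 1179 to 1247 on the linear scale in embryonic fibroblasts. It was 1200 to 1266 in cardiomyocytes and 1312 to 1566 in adult fibroblasts. In every group S100b, Gfap and Foxd3 were dimmer than 6.91, the 30th percentile of probe means. Glial markers were thus no higher where Fabp7 was high. Of 12 epicardial and mesothelial markers, 5 were higher and 0 lower in embryonic fibroblasts than in cardiomyocytes, beside 10.3% and 11.1% of all genes. Against adult fibroblasts 8 were higher and 0 lower, beside 11.2% and 8.34%. All markers of the list except Krt19 and Aldh1a2 had, like Fabp7, their highest mean in embryonic fibroblasts. Upk1b, which came 4th in the ranking that Fabp7 headed, had means of 8.80 there, 7.03 in cardiomyocytes and 6.64 in adult fibroblasts. Krt19 had its highest mean in cardiomyocytes (8.34) and Aldh1a2 in adult fibroblasts (9.37). The summed level of the list was 4251 to 5172 in embryonic fibroblasts, 2988 to 3120 in cardiomyocytes and 2749 to 2982 in adult fibroblasts. Of 12 endothelial markers, 10 were higher and 0 lower in embryonic fibroblasts than in cardiomyocytes. Against adult fibroblasts 2 were higher and 1 lower. The part of either list in the Fabp7 values was not tested.

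Fabp3, the heart-type carrier, ran the opposite way to the fibroblast markers. Its values were 12.10, 11.87 and 11.69 in cardiomyocytes, 10.34, 9.62 and 10.61 in embryonic fibroblasts and 7.79, 7.997 and 7.62 in adult fibroblasts. The 3 groups did not overlap. The level in embryonic fibroblasts was 3.24-fold below cardiomyocytes (-1.70 ± 0.23, limma adjusted p = 9.44e-04) and 5.24-fold above adult fibroblasts (2.39 ± 0.23, adjusted p = 1.06e-04). Between adult fibroblasts and cardiomyocytes the gap was 17.0-fold (-4.09 ± 0.23), the widest among the 7 genes.

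A second probe for Fabp3 gave group means of 11.92, 10.21 and 7.62, next to 11.89, 10.19 and 7.80 for the one used. RefSeq lists a Fabp3 pseudogene, Fabp3-ps1, on chromosome 10, and which of the copies each probe reads was not tested. Cardiomyocyte markers followed the same order of groups as Fabp3, with 9 of 12 lower in embryonic fibroblasts than in cardiomyocytes and 12 of 12 higher than in adult fibroblasts. Within the embryonic fibroblasts, replicate 2 had the lowest Fabp3 value and the lowest cardiomyocyte marker mean (10.95), and replicate 3 the highest of both (11.69 for the markers). Macrophage and epicardial markers had that same order of replicates. Summed over the list, the cardiomyocyte markers stood at 40545 to 57420 in embryonic fibroblasts, 84170 to 89869 in cardiomyocytes and 3251 to 5635 in adult fibroblasts. How much of the Fabp3 RNA in embryonic fibroblasts came from muscle cells was not tested.

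Fabp5, the epidermal-type carrier, was high in both embryonic groups. Embryonic fibroblasts had 11.12, 11.04 and 11.06, cardiomyocytes 10.78, 10.58 and 10.56, and adult fibroblasts 9.21, 9.71 and 9.49. No groups overlapped, and the embryonic fibroblast arrays were again tight (SD 0.041). Fabp5 was 3.04-fold higher in embryonic than in adult fibroblasts (1.60 ± 0.12, limma adjusted p = 2.66e-05). Adult fibroblasts were also 2.25-fold below cardiomyocytes (-1.17 ± 0.12, adjusted p = 5.92e-05).

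Between the embryonic groups Fabp5 differed by 1.35-fold (0.43 ± 0.12, limma adjusted p = 0.0337). This call was lost on leaving out any single array of those groups except cardiomyocyte replicate 1, with adjusted p from 0.0739 to 0.113, and with the replicate number as a block (0.0599). The second Fabp5 probe had means of 10.61, 11.01 and 9.45 in cardiomyocytes, embryonic fibroblasts and adult fibroblasts, near the 10.64, 11.07 and 9.47 of the probe used.

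Fabp4, the adipocyte-type carrier, was highest in adult fibroblasts, where the arrays read 11.46, 12.01 and 10.86. Embryonic fibroblasts read 9.65, 9.64 and 10.06, and cardiomyocytes 9.60, 8.79 and 8.95. Adult arrays were above all others, but they spread over more than a 2-fold range, with replicate 3 the lowest. Fabp4 was 5.03-fold higher in adult fibroblasts than in cardiomyocytes (2.33 ± 0.29, limma adjusted p = 1.86e-04). Embryonic fibroblasts were 3.17-fold below adult ones (-1.66 ± 0.29, adjusted p = 0.00343). The embryonic groups did not overlap, yet their difference of 0.67 ± 0.29 did not pass (adjusted p = 0.156, and 0.0367 with array weights).

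Fabp4 and Fabp5 lie in a run of 5 protein-coding genes on mouse chromosome 3, in the RefSeq order Fabp5, Pmp2, Fabp9, Fabp4 and Fabp12 (GRCm38.p6). Within the run Fabp5 was lower and Fabp4 higher in adult fibroblasts than in cardiomyocytes. Pmp2, the myelin form of the family, was higher there by 0.60 ± 0.17 (limma adjusted p = 0.0194), and the testis-type Fabp9 by 1.28 ± 0.27 (adjusted p = 0.00437). Fabp9 was also lower in embryonic than in adult fibroblasts (-1.06 ± 0.27, adjusted p = 0.0214). Values of Fabp9 on the adult arrays, 6.71, 7.24 and 6.09, had the same order as those of its neighbour Fabp4. Fabp12 had 6.67 ± 0.042, 6.70 ± 0.049 and 6.81 ± 0.25 in cardiomyocytes, embryonic and adult fibroblasts and passed no test (adjusted p from 0.411 to 0.931). Pmp2, Fabp9 and Fabp12 were dim (5.29 to 7.24 over all arrays), and whether their probes read RNA of a relative was not tested.

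**Figure D2:**
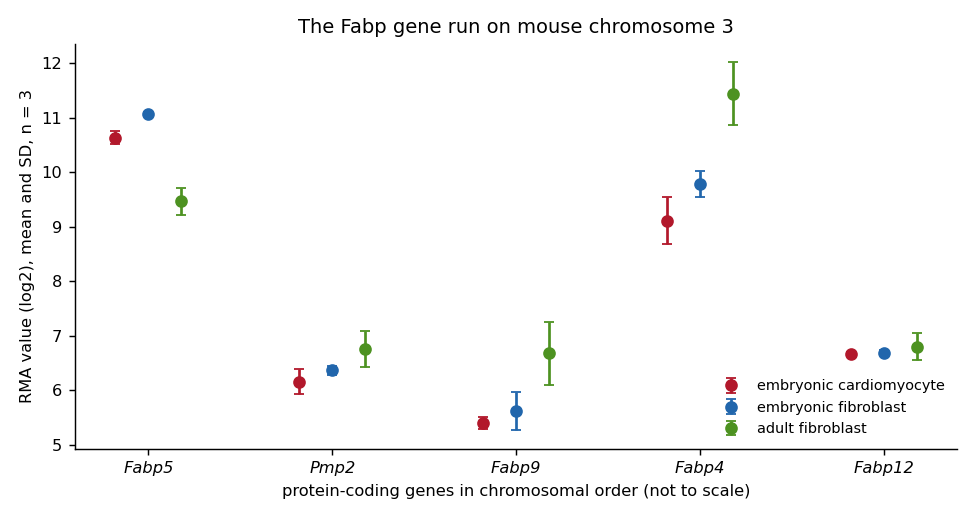
Mean RMA values (log2, vertical axis) with SD of 3 arrays for the 5 genes of the chromosome 3 run, in chromosomal order on the horizontal axis, not to scale; colours are the groups. Adult fibroblasts have the lowest mean for Fabp5 (9.47) and the highest for Fabp4 (11.45).

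Cd36, the membrane protein that speeds fatty acid uptake, was lowest in embryonic fibroblasts. The values there were 9.40, 8.95 and 9.65, against 10.79, 10.37 and 10.20 in cardiomyocytes and 11.41, 12.00 and 10.63 in adult fibroblasts. Embryonic fibroblasts overlapped with neither group, whereas adult replicate 3 lay within the range of the cardiomyocytes. Cd36 was 4.03-fold lower in embryonic than in adult fibroblasts (-2.01 ± 0.32, limma adjusted p = 0.00196).

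Against cardiomyocytes Cd36 was 2.17-fold lower in embryonic fibroblasts (-1.12 ± 0.32, limma adjusted p = 0.0354). Leaving out any single array of the embryonic groups except embryonic fibroblast replicate 3 ended this call (adjusted p from 0.0564 to 0.134). Adult fibroblasts and cardiomyocytes differed by 0.90 ± 0.32, which did not pass (adjusted p = 0.0574). Without adult replicate 3 the difference was 1.26 and passed (adjusted p = 0.00326), as it did with array weights, quantile normalization and the filter on dim genes (adjusted p from 0.00357 to 0.0474). 

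Lpl, the lipase that frees fatty acids from lipoproteins, had the same low point. Its values were 9.37, 8.97 and 9.62 in embryonic fibroblasts, 10.56, 10.53 and 10.29 in cardiomyocytes and 10.28, 10.23 and 10.40 in adult fibroblasts. The embryonic fibroblast arrays were below all others, and the other groups overlapped. Lpl was 2.21-fold below cardiomyocytes (-1.14 ± 0.15, limma adjusted p = 8.66e-04) and 1.98-fold below adult fibroblasts (-0.99 ± 0.15, adjusted p = 0.00162). Between adult fibroblasts and cardiomyocytes the difference was -0.15 (95% interval from -0.50 to 0.19, adjusted p = 0.479).

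Embryonic fibroblasts thus had the lowest Cd36 and Lpl values of the 3 groups. They had the highest Fabp7 and Fabp5 values.

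Pparg, the receptor, rose in steps from cardiomyocytes (7.23, 7.13 and 7.33) through embryonic fibroblasts (7.79, 7.79 and 7.75) to adult fibroblasts (8.72, 9.34 and 8.35). No groups overlapped. Adult fibroblasts were 2.98-fold above cardiomyocytes (1.57 ± 0.21, limma adjusted p = 2.32e-04), and embryonic fibroblasts 2.04-fold below adult ones (-1.03 ± 0.21, adjusted p = 0.00660). The step between the embryonic groups, 0.55 ± 0.21, did not pass (adjusted p = 0.0954). It passed without adult replicate 2 or 3, with only the 2 groups fitted and with array weights (adjusted p from 0.00201 to 0.0191), and the adult arrays had the widest spread (SD 0.50). The array's single Pparg probe does not separate the transcripts of its 3 start sites.

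**Figure D3:**
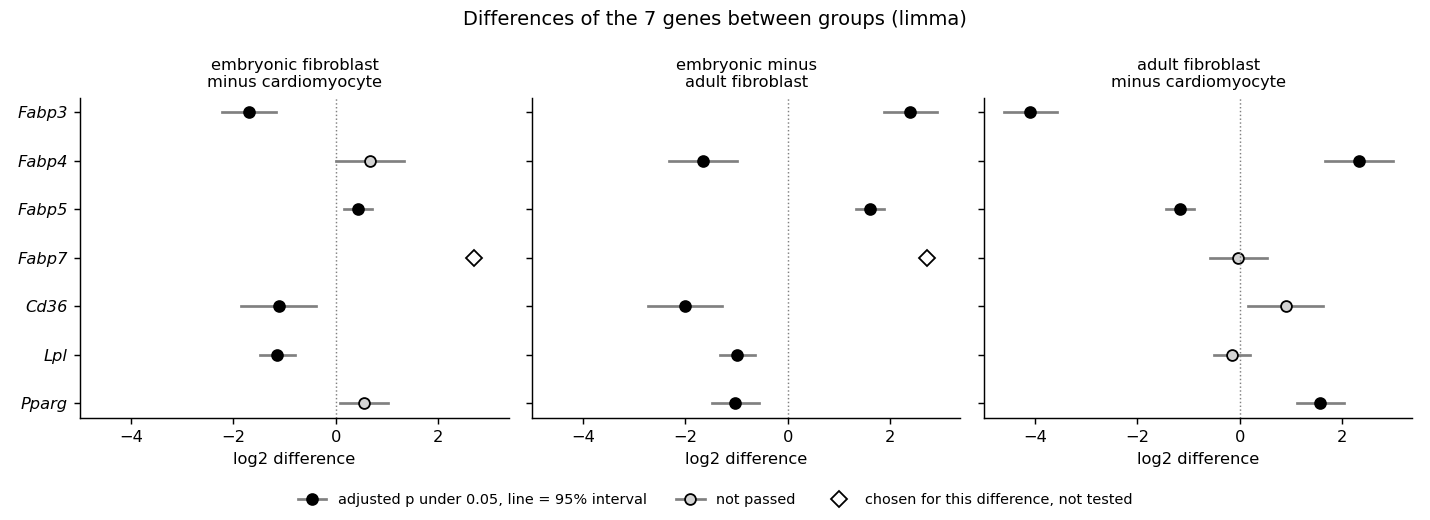
Differences in log2 units (horizontal axis) of the 7 genes (vertical axis) in the 3 comparisons, one per panel, with 95% intervals from limma. Filled points passed an adjusted p of 0.05, grey points did not, and open diamonds mark Fabp7 where it was chosen for the difference (2.70 and 2.72).

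Counted over the 6 genes other than Fabp7, embryonic fibroblasts had 1 higher and 3 lower than cardiomyocytes. Over all genes 10.3% were higher and 11.1% lower in that comparison. Against adult fibroblasts 2 of the 6 were higher and 4 lower, beside 11.2% higher and 8.34% lower over all genes. Between adult fibroblasts and cardiomyocytes 2 of the 7 genes were higher and 2 lower, where the shares over all genes were 17.4% and 18.2%. The 7 genes had been picked with such differences known, and the comparisons share groups, so the counts describe the set only. The median of all genes moved by at most 0.058 in any comparison.

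Adult replicates differed among themselves mostly in 3 of the genes. Fabp4, Cd36 and Pparg all had their highest adult value in replicate 2 and their lowest in replicate 3. Fabp3 had that order too, over a narrower range (7.997, 7.79 and 7.62 in replicates 2, 1 and 3). The mean log2 level of 12 endothelial markers had the same order, 9.77 in replicate 2, 9.18 in replicate 1 and 8.71 in replicate 3. Macrophage (9.46), cardiomyocyte (8.23) and adipocyte markers (7.09) were also highest in replicate 2, but lowest in replicate 1. Summed, the endothelial markers ran from 6303 to 14366 in adult fibroblasts, 10876 to 15108 in embryonic fibroblasts and 4251 to 5947 in cardiomyocytes.

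Between the groups, 6 of 12 endothelial markers were higher and 0 lower in adult fibroblasts than in cardiomyocytes, beside 17.4% and 18.2% of all genes. Fabp4 and Pparg were higher there too. Against cardiomyocytes, embryonic fibroblasts had 10 endothelial markers higher and 0 lower, beside 10.3% and 11.1% of all genes. The Fabp4 difference of 0.67 did not pass. In embryonic against adult fibroblasts 2 of the 12 markers were higher and 1, Cldn5, was lower (-0.87, limma adjusted p = 0.0352). Over all genes 11.2% were higher and 8.34% lower. Fabp4, Cd36 and Pparg were all lower in that comparison. Macrophage markers were higher in adult fibroblasts, with 13 of 14 above cardiomyocytes and 0 below, beside 17.4% and 18.2% of all genes. Against embryonic fibroblasts 6 were higher and 1 lower in the adult cells, beside 8.34% and 11.2% of all genes. The macrophage marker sums were 7218 to 12813 in adult fibroblasts, 4492 to 6225 in embryonic fibroblasts and 2664 to 3012 in cardiomyocytes. Macrophages and endothelial cells both are known to express Cd36 and Fabp4, and their part in these values was not tested.

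Adipocyte markers showed few differences between the groups. Of 8 measured, 1 was higher and 0 lower in embryonic fibroblasts than in cardiomyocytes, beside 10.3% and 11.1% of all genes. It was Ucp1 (0.60, limma adjusted p = 0.0121). None of 8 passed between adult fibroblasts and either embryonic group by limma (0 higher and 0 lower in both comparisons), and their summed level was 1120 to 1190 in adult fibroblasts against 1113 to 1148 and 1042 to 1156 in embryonic fibroblasts and cardiomyocytes. Adipoq, the fat cell hormone adiponectin, had means of 5.84, 5.92 and 5.97 in cardiomyocytes, embryonic and adult fibroblasts, which is under that same percentile. Lep and Adig were below it as well. Plin1 (means of 7.96, 7.98 and 8.04 in the same order), Cidec, Lipe and Retn were above it in every group.

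**Figure D4:**
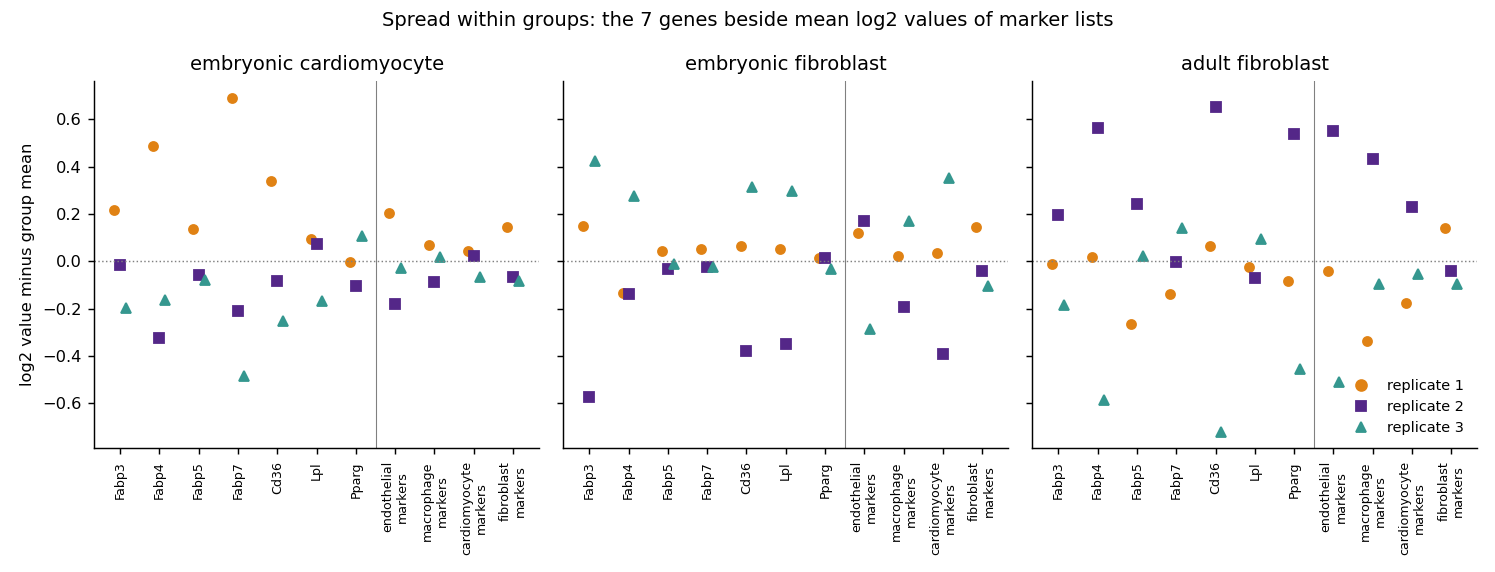
Deviation of each array from its group mean in log2 units (vertical axis) for the 7 genes and for mean levels of 4 marker lists (horizontal axis), by group. In adult fibroblasts Fabp3, Fabp4, Cd36, Pparg and the endothelial markers share the order replicate 2, replicate 1, replicate 3. In embryonic fibroblasts Fabp3, Fabp4, Cd36, Lpl and the cardiomyocyte and macrophage markers share the order replicate 3, replicate 1, replicate 2.

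In embryonic fibroblasts the order was another. Replicate 3 was highest and replicate 2 lowest for Fabp3, Fabp4, Cd36 and Lpl and for the cardiomyocyte markers. For Fabp4, replicates 1 and 2 were nearly equal (9.647 and 9.642). The same held for the macrophage markers (8.51 and 8.15) and the epicardial and mesothelial markers (8.45 and 8.20). Fabp7, Fabp5 and Pparg hardly varied there (SD 0.044, 0.041 and 0.027). Among cardiomyocytes, replicate 1 had the highest values of all members except Pparg. It also had the highest means of the cardiomyocyte (12.63), fibroblast (8.59), endothelial (8.70), macrophage (7.56) and red cell markers (9.43).

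Likeness of pattern was measured by Pearson correlation over the 9 arrays, among the 2947 genes with an SD of at least 0.5. The arrays fall in 3 groups, so these values mostly describe the group means. Genes closest to Fabp7 were Bace2 (r = 0.983), Plxnc1 (0.982), Cdh10 (0.981), Elk3 (0.974) and Dpp4 (0.971). Fabp3 was closest to the muscle genes Mb (0.998), Tnni1 (0.996) and Myom1 (0.996), which encode myoglobin, a troponin and an M-band protein. Fabp5 was closest to Zfp711 (0.992), Cdkn1c (0.990), a cell cycle inhibitor, and Zdbf2 (0.988). For Fabp4 they were Slc30a4 (0.984), Acot10 (0.984) and St8sia4 (0.983), and for Pparg Kitl (0.995), Cd274 (0.989) and Gbp7 (0.986).

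Cd36 had no partner as close as the other genes did, with Mt1 (0.950), Hspa1a (0.949) and Ggct (0.919) at the top. Lpl was nearest to Gbe1 (0.964), the glycogen branching enzyme, Zcchc7 (0.941) and Vldlr (0.941). Vldlr encodes a receptor that takes up triglyceride-rich lipoproteins and works beside Lpl. Among the members themselves Fabp4 and Pparg were the most alike (r = 0.966), and Fabp3 and Pparg the most opposed (-0.908).

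The wider pathway was read from 5 lists. Of 10 other carriers of the family and their retinoid-binding relatives, 2 were higher and 0 lower in embryonic fibroblasts than in cardiomyocytes. Over all genes the shares were 10.3% and 11.1%. The median difference was 0.15 for the list and -0.0003 for all genes. Against adult fibroblasts 1 was higher and 1 lower, beside 11.2% and 8.34% of all genes. Between adult fibroblasts and cardiomyocytes 4 were higher and 2 lower, beside 17.4% and 18.2% of all genes. Crabp2, which carries retinoic acid, was 3.21-fold higher in embryonic fibroblasts than in cardiomyocytes (1.68 ± 0.15, limma adjusted p = 1.47e-04) and also higher in adult fibroblasts (1.40). Crabp1 was lower in adult fibroblasts than in cardiomyocytes (-0.68).

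Fabp2, the intestinal form, was like Fabp7 highest in embryonic fibroblasts. It read 7.09, 8.07 and 7.83 in embryonic fibroblasts, 6.20, 6.46 and 6.23 in cardiomyocytes and 6.20, 6.10 and 6.31 in adult fibroblasts. Embryonic fibroblasts were above both without overlap, by 1.37 ± 0.21 (limma adjusted p = 0.00190) and 1.46 ± 0.21 (adjusted p = 0.00119). Their arrays were spread (SD 0.51), and the means of cardiomyocytes (6.29) and adult fibroblasts (6.20) were under 6.91, the 30th percentile of probe means. Whether the Fabp2 probe reads RNA of a relative was not tested.

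Among 12 genes that transport or activate fatty acids, 3 were higher and 0 lower in embryonic fibroblasts than in cardiomyocytes, and 1 was higher and 1 lower against adult fibroblasts. Between adult fibroblasts and cardiomyocytes 3 were higher and 1 lower. The shares of all genes, in the same order, were 10.3% and 11.1%, 11.2% and 8.34%, and 17.4% and 18.2%. Acsl4, an acyl-CoA synthetase with a preference for arachidonic acid, climbed from cardiomyocytes (9.55 to 9.70) through embryonic (10.37 to 10.49) to adult fibroblasts (11.56 to 11.79). It was 4.20-fold higher in adult fibroblasts than in cardiomyocytes (2.07 ± 0.086, limma adjusted p = 2.64e-07). The transporter Slc27a6 was higher in embryonic fibroblasts than in cardiomyocytes (1.16), as was caveolin, Cav1 (1.42). Cavin1, its coat partner, was higher in embryonic than in adult fibroblasts (0.59).

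Lipoprotein genes moved in both directions. Of 13 measured, 3 were higher and 2 lower in embryonic fibroblasts than in cardiomyocytes, beside 10.3% and 11.1% of all genes. Against adult fibroblasts 1 was higher and 4 lower, beside 11.2% and 8.34%. In adult fibroblasts 6 were higher and 2 lower than in cardiomyocytes, beside 17.4% and 18.2%. Vldlr, like Lpl, was lowest in embryonic fibroblasts, by -1.09 against cardiomyocytes and -0.70 against adult fibroblasts. The receptor Lrp1 was 4.42-fold higher in adult fibroblasts than in cardiomyocytes (2.14 ± 0.17, limma adjusted p = 1.07e-05). Apoe was higher than in cardiomyocytes in both embryonic (1.10) and adult fibroblasts (1.30), and Apoc1 was higher in embryonic fibroblasts than in cardiomyocytes (0.93) and adult fibroblasts (1.24). Gpihbp1, which anchors Lpl to capillaries, was higher in adult fibroblasts than in cardiomyocytes (0.73) and lower in embryonic than in adult fibroblasts (-0.49). Angptl4, an inhibitor of Lpl, was higher in adult fibroblasts than in cardiomyocytes (0.39, adjusted p = 0.0327).

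Of 12 receptors and coregulators around Pparg, embryonic fibroblasts had 1 higher and 4 lower than cardiomyocytes, beside 10.3% and 11.1% of all genes, and 7 did not pass. In adult fibroblasts 2 were higher and 5 lower than in the same cardiomyocyte arrays, beside 17.4% and 18.2% of all genes, and 5 did not pass. In embryonic against adult fibroblasts 2 were higher and 0 lower, beside 11.2% and 8.34% of all genes. Ppargc1a, a coactivator that drives mitochondrial genes, was 14.2-fold lower in adult fibroblasts than in cardiomyocytes (-3.83 ± 0.28, limma adjusted p = 5.31e-06) and lay between in embryonic fibroblasts (-1.64 against cardiomyocytes). Ppargc1b was lower in both fibroblast groups (-0.52 and -0.65), and the corepressor Nrip1 was higher in both (0.70 and 0.49). Med1, a subunit of the Mediator complex, was higher in adult fibroblasts (0.45). Ppara, the related receptor of oxidative tissues, was lower in adult fibroblasts than in cardiomyocytes (-0.31, adjusted p = 0.0442), and Ppard passed no test (adjusted p from 0.128 to 0.907).

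Of the genes in the 5 lists, 10 were not analysed here for want of a probe with a single symbol. In the list of lipid storage genes 16 of 18 did not pass between the embryonic groups, with 1 higher and 1 lower. Against adult fibroblasts 1 was higher and 2 lower, and 5 were higher and 1 lower in adult fibroblasts than in cardiomyocytes. Over all genes, the shares higher and lower in these comparisons were 10.3% and 11.1%, 11.2% and 8.34%, and 17.4% and 18.2%. Scd1, the desaturase that makes monounsaturated fatty acids, was higher in adult fibroblasts than in cardiomyocytes (1.88) and embryonic fibroblasts, which were 3.54-fold below them (-1.82 ± 0.16, limma adjusted p = 5.49e-05). Plin2, which coats lipid droplets, was 3.28-fold higher in adult fibroblasts than in cardiomyocytes (1.71 ± 0.42, adjusted p = 0.00994). Its adult values of 11.48, 12.11 and 10.08 had the same order as Fabp4. Cebpa, a transcription factor of fat cell formation, rose from cardiomyocytes to embryonic fibroblasts (0.54) and was highest in adult fibroblasts (1.09 above cardiomyocytes). Pdk4, which spares glucose when fatty acids are burnt, was 3.45-fold lower in adult fibroblasts than in cardiomyocytes (-1.79 ± 0.20, adjusted p = 8.05e-05).

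**Figure D5:**
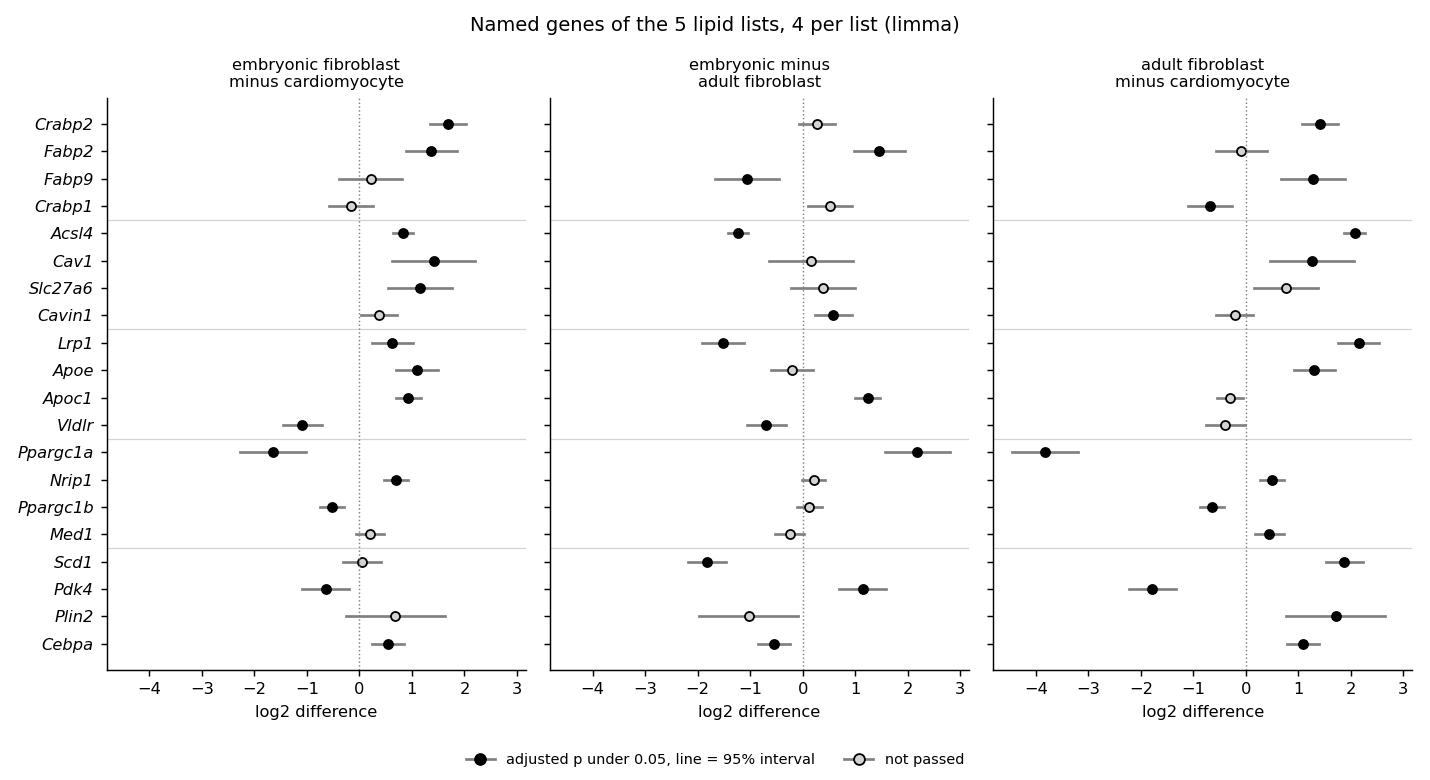
Differences in log2 units (horizontal axis) with 95% intervals for the 4 named genes of each of 5 lipid lists (vertical axis, lists parted by lines) in the 3 comparisons. Filled points passed an adjusted p of 0.05; Ppargc1a (-3.83) and Lrp1 (2.14) have the largest differences of each sign between adult fibroblasts and cardiomyocytes.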

How the data were processed

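RMA, named without a version in the submitters' processing notes, is what the authors used to background-correct, normalize and summarise probe signals into the deposited log2 values. The log base was inferred from their range, 2.70 to 14.20. No source used here names a genome build or probe annotation version. Of 28767 probes, 21776 had a single gene symbol (1618 several, 5373 none, both left out), giving 19933 genes, each by the probe with the highest mean. Symbols were checked against RefSeq (GRCm38.p6), and 0 changed. RMA gave equal values on all 3 arrays of a group for 0.785% to 1.66% of probes, where an SD of 0 understates the spread.

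Groups and replicate numbers came from the titles. Limma 3.58.1 in R 4.3.3 (lmFit, eBayes) was fitted to all 9 arrays with a mean per group, tests two-sided, p-values adjusted by Benjamini-Hochberg over all genes and called under 0.05. The script was tested on simulated data. Figures used matplotlib 3.10.9.

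The members and lists were chosen with earlier results of these data known. Named genes are the members, up to 4 called genes with the largest difference per list, 6 genes tied to a member (Ppara, Ppard, Angptl4, Gpihbp1, Ppargc1a and Pmp2), markers, and the genes of highest correlation (5 for Fabp7, 3 for each other member); Klhl6 and Fabp12 were added after their values were seen. Alternatives were the replicate block, median centring, quantile normalization, a filter below the 30th percentile (5265 genes left out), the mean of a gene's probes, fitting only the groups compared, array weights, a trended robust prior and leaving out each array. Chosen after seeing the data were the probe with the lowest mean and leaving out 2 arrays together.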

Additional observations from a re-analysis of the deposited data

How the results depend on the processing

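The calls of the members against adult fibroblasts held under all alternatives run (2 higher and 4 lower of 6), as did the direction of every member except Fabp7 between adult fibroblasts and cardiomyocytes. That difference of -0.03 became 0.013 with quantile normalization and ranged from -0.27 to 0.32 on leaving out 1 array, positive without cardiomyocyte replicate 1 (0.32) or adult fibroblast replicate 1 (0.04). The count of members higher in embryonic fibroblasts than in cardiomyocytes, 1 in the fit reported, was 0 with the replicate block, 2 with only the 2 groups fitted, 3 with array weights, 0 without embryonic fibroblast replicate 2 and adult fibroblast replicate 3 together, and 0 to 2 on leaving out 1 array. The count of lower members there ranged from 2 to 3 over all these alternatives. The cause was not tested. Over all genes, array weights raised the counts from 2054 to 3103 higher and from 2212 to 3362 lower between the embryonic groups, and from 1662 to 2519 lower against adult fibroblasts. Leaving out 1 array gave 1452 to 2830 lower genes between the embryonic groups, the fewest without embryonic fibroblast replicate 2. No pairing of samples by replicate number was seen. Deviations of same-numbered arrays correlated from -0.195 to 0.198, those of other arrays from -0.22 to 0.191. Arrays did not each correlate best with their own number. Deviations from means of 3 arrays are too few and too constrained to decide whether a pairing exists. With the replicate block Fabp5 lost its call between the embryonic groups (adjusted p = 0.0599), and no other member's call changed. RMA values give no signal over background per probe, so how dim genes such as Pparg in cardiomyocytes are limited by it is unknown.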
